A study of Mus musculus with 12 samples.

Results

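The TCRBJ01 cluster is the group of joining (J) segments that lies closest to the first diversity (D) segment of the T cell receptor β locus. Its 6 genes studied here, TCRBJ01-01 to TCRBJ01-06, were chosen by name from the J gene call of each rearrangement, and they are 6 of the 14 J genes named in the data. They accounted for 102537 of 288925 rearrangements read, of which 71321 of 205925 productive ones were in frame and without a stop codon, 30134 of 79915 were out of frame and 1082 carried a stop codon. The remaining genes are 7 TCRBJ02 genes and TCRBJ01-07, which was called in 2 productive and 83 out-of-frame rearrangements and was not counted with the cluster.

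All cells came from female C57BL/6 mice bearing subcutaneous MC38 tumors, a mouse colon adenocarcinoma line, and treated with both anti-CTLA-4 Ab and anti-PD-L1 Ab, so the comparisons are among cell populations of treated animals and hold no untreated group. The study took the cells 2 weeks after therapy was begun. Splenic CD8+ T cells were sorted by flow cytometry into CD27lo CX3CR1-, CD27hi CX3CR1- and CX3CR1+ subsets (written as CX3CR1lo and CX3CR1hi in the sample labels), and tumor-infiltrating lymphocytes (TILs) were CD8+ cells selected from the tumor on CD8a. Each of these 4 populations was sequenced once in each of 3 experiments, called A, B and C here, which gave 12 libraries. The mice of an experiment were treated as pooled in its libraries, so values describe pools and not single animals. Only TCRβ DNA was measured, so the sorted phenotypes could not be checked against marker genes.

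During T cell development the β chain is assembled from a V, a D and a J segment. A D segment is first joined to a J segment downstream of it, and a V segment is then joined to that product, with bases trimmed and added at each junction. The first D segment can join either J cluster, whereas the second D segment lies downstream of the TCRBJ01 genes and joins TCRBJ02 genes on an unaltered chromosome. The J segment encodes the end of CDR3, the loop that contacts the peptide, and the framework strand after it. An out-of-frame rearrangement makes no receptor chain and is carried along by a productive rearrangement on the other chromosome, so its J gene has not itself been selected.

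The J bases that were read up to the end of the sequenced window are shown to let the clones further on be read against them. Each is the sequence most often seen in rearrangements with no J base removed, and in all 6 genes 100% of such rearrangements were identical to it. Capitals mark J bases.
TCRBJ01-01: CAAACACAGAAGTCTTC
TCRBJ01-02: CAAACTCCGACTACACC
TCRBJ01-03: TTCTGGAAATACGCTCTAT
TCRBJ01-04: TTTCCAACGAAAGATTATTT
TCRBJ01-05: TAACAACCAGGCTCCGCTT
TCRBJ01-06: TTCCTATAATTCGCCCCTCTAC
These stretches hold between 17 bases for TCRBJ01-01 and 22 bases for TCRBJ01-06, and the identity rests on between 1954 rearrangements for TCRBJ01-06 and 7972 for TCRBJ01-02. In the RefSeq annotation of GRCm38.p6 (mm10), the segments follow each other on chromosome 6, from Trbj1-1 at chr6:41533864-41533911 over Trbj1-2 at chr6:41534001-41534048, Trbj1-3 at chr6:41534323-41534372, Trbj1-4 at chr6:41534811-41534861 and Trbj1-5 at chr6:41535084-41535133 to Trbj1-6 at chr6:41535554-41535606. Trbd1 lies before them at chr6:41533201-41533212, and Trbd2 lies after them at chr6:41542163-41542176.

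The libraries differed in depth, from 7804 templates in the TILs of experiment A to 172292 in the CX3CR1+ subset of experiment C, where a template is the assay's estimate of 1 rearranged gene copy in the input DNA. Productive unique rearrangements ranged from 1359 to 54639 per library. CX3CR1+ cells and TILs held most of their templates in few large clones, and these 2 populations are called the clonal groups below. The J gene was not resolved in 0.104% of productive rearrangements. Exact p-values given here came from exchanging population labels within experiments, or the signs of differences over experiments or libraries. The p-values of the count test edgeR rest on the spread of counts between libraries. With 3 experiments, the smallest p that an exact test could give was 0.25 for a difference between 2 populations. It was 0.00926 for the clonal groups against the CX3CR1- subsets.

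To ask whether use of the cluster differed between the populations, its share was first taken over unique productive rearrangements, where each clone counts once whatever its size. The cluster made up between 31.6% and 35.5% in every library. It was 34.6%, 34.6% and 34.7% in CD27lo CX3CR1- cells of experiments A, B and C, 34.6%, 35.1% and 34.6% in CD27hi CX3CR1- cells, 33.4%, 35.5% and 34.4% in CX3CR1+ cells, and 34.1%, 31.6% and 33.2% in TILs. The 2 lowest values were TIL libraries, but the CX3CR1+ library of experiment A lay below the highest TIL library, so the groups overlapped. The clonal groups were lower than the CX3CR1- subsets by 0.998 ± 0.269 percentage points (SD over n = 3 experiments, lower in 3 of 3), which did not pass the exact permutation test within experiments (p = 0.120, adjusted p = 0.451 over the 14 J genes and the cluster). Its direction also depended on counting, since the difference was 0.00231 points at equal depth and 2.07 points among rearrangements with at least 2 templates. In that comparison 0% of the 15 features tested passed.

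The 6 genes were used at different levels, in the order TCRBJ01-01, -04, -02, -03, -05 and -06. Over the 12 libraries they averaged 9.45%, 6.72%, 6.60%, 4.90%, 3.60% and 2.93% of unique productive rearrangements. Every library had more TCRBJ01-01 than any other member, whereas the ranges of neighbours further down this order overlapped between libraries. For TCRBJ01-02 the values were 6.73%, 6.71% and 6.66% in CD27lo CX3CR1- cells, 7.41%, 6.99% and 7.47% in CD27hi CX3CR1- cells, 6.15%, 6.39% and 7.12% in CX3CR1+ cells and 6.25%, 5.48% and 5.84% in TILs. All 3 TIL libraries lay below all CX3CR1- libraries, while the CX3CR1+ library of experiment C lay among them. The clonal groups minus the CX3CR1- subsets gave -0.788 points (exact permutation p = 0.0278, adjusted p = 0.208). The same counts tested with edgeR's quasi-likelihood test, an alternative chosen after the data were seen, gave a log2 difference of -0.17 with an adjusted p of 0.0264, in a comparison where 23.1% of 13 J genes passed.

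**Figure D1:**
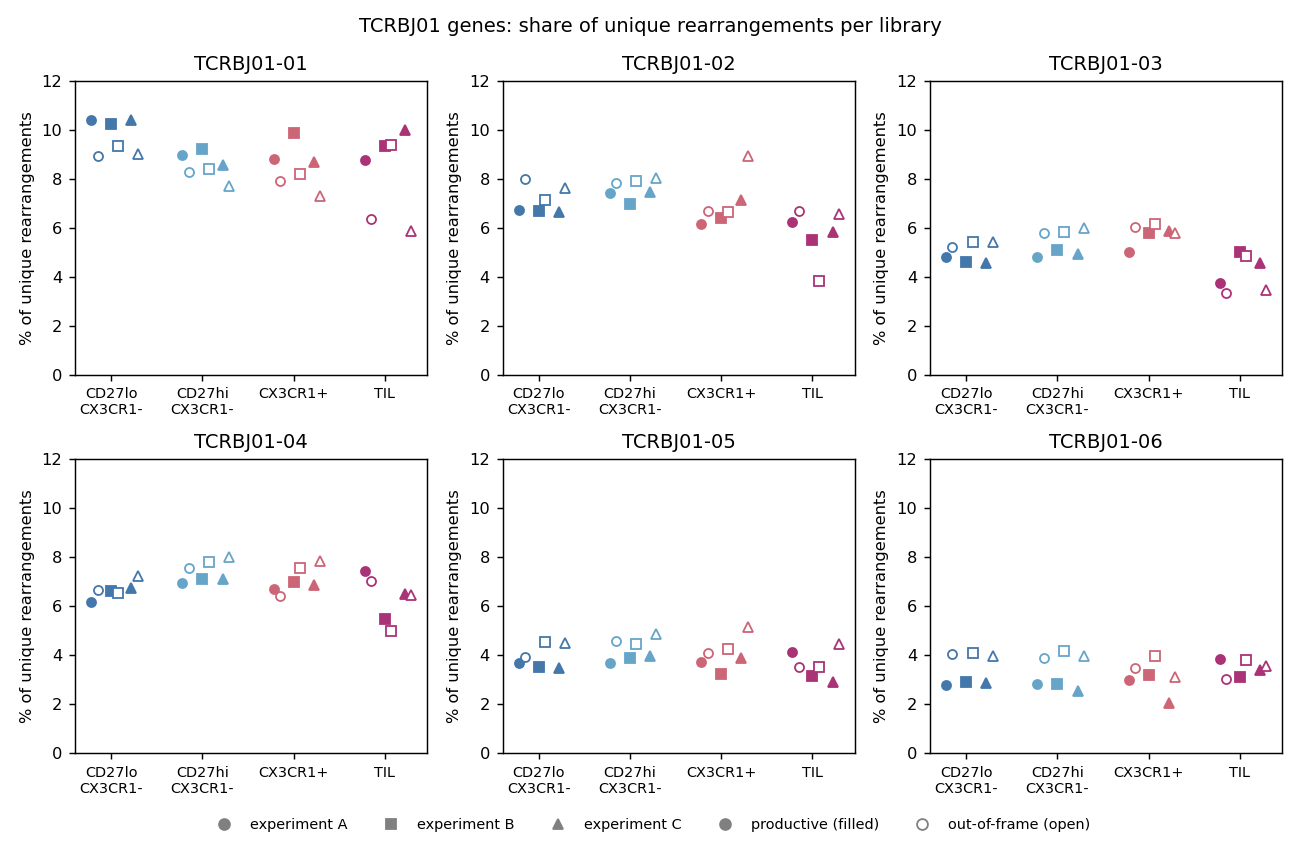
Share of a library's unique rearrangements (percent) that used each TCRBJ01 gene, with 1 point per library, filled for productive and open for out-of-frame rearrangements. TCRBJ01-01 was the most used member at 9.45% of productive rearrangements on average, and its CD27lo CX3CR1- libraries lay between 10.2% and 10.4%.

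The clearest contrast in unique rearrangements was between the CD27lo and CD27hi CX3CR1- subsets. TCRBJ01-01 made up 10.4%, 10.2% and 10.4% of unique productive rearrangements in CD27lo CX3CR1- cells, against 8.97%, 9.24% and 8.59% in CD27hi CX3CR1- cells. The groups did not overlap, and the difference was 1.42 ± 0.428 points (SD, n = 3, higher in 3 of 3). The planned test, exact sign flips over the 3 experiments, can give no p below 0.25, so this contrast could not pass it. By edgeR on the counts of unique rearrangements per J gene, chosen after the data were seen, TCRBJ01-01 was higher in CD27lo CX3CR1- cells by 0.22 on the log2 scale (SE 0.034, adjusted p = 1.8e-07), whereas TCRBJ01-02 and TCRBJ01-04 were lower by fitted log2 differences of -0.12 (adjusted p = 0.0103) and -0.11 (adjusted p = 0.0212). In that comparison 53.8% of 13 J genes passed. The size of this difference moved with how clones were counted. It was 0.971 ± 0.340 points (higher in 3 of 3) when all libraries were drawn down to 5893 templates, 0.958 ± 0.358 points (3 of 3) among out-of-frame rearrangements and 0.245 ± 0.437 points (2 of 3) as a share of templates. Among rearrangements with at least 2 templates it turned to -1.31 points.

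That dependence was accompanied by a property of the counts that differed from one J gene to the next. In CD27lo CX3CR1- cells 96.4%, 96.9% and 95.9% of the TCRBJ01-01 rearrangements had a count of 1 template, and for TCRBJ01-06 the share was 96.4% ± 0.172 (SD, n = 3). For TCRBJ01-03 it was 39.2% ± 0.999 and for TCRBJ01-05 43.5% ± 4.18, with TCRBJ01-02 at 66.1% ± 3.01 and TCRBJ01-04 at 69.4% ± 2.79. The gap between these members in the same cells was far larger than the SDs.

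The same order was seen in cells of the other CX3CR1- subset and in rearrangements that make no receptor. In CD27hi CX3CR1- cells the shares at 1 template were 93.8%, 94.1% and 90.5% for TCRBJ01-01, 97.9% ± 0.688 for TCRBJ01-06, 61.0% ± 2.08 for TCRBJ01-03 and 61.7% ± 4.89 for TCRBJ01-05. Out-of-frame rearrangements of CD27lo CX3CR1- cells gave 96.3% ± 0.415 for TCRBJ01-01, 95.9% ± 1.12 for TCRBJ01-06, 43.0% ± 0.612 for TCRBJ01-03 and 44.2% ± 5.47 for TCRBJ01-05. These were close to the productive values. Over all 12 libraries the productive share at 1 template ranged from 59.6% to 96.9% for TCRBJ01-01 and from 68.8% to 98.7% for TCRBJ01-06. It ranged from 35.3% to 63.0% for TCRBJ01-03 and from 30.2% to 65.3% for TCRBJ01-05. The levels in the CX3CR1- subsets thus did not hold in every library. The share of templates divided by the share of unique rearrangements in CD27lo CX3CR1- cells was 0.747 for TCRBJ01-01 and 0.739 for TCRBJ01-06, but 1.27 for TCRBJ01-03 and 1.22 for TCRBJ01-05. Out of frame, the ratios of the 4 genes were 0.777, 0.769, 1.25 and 1.21. The part of this counting difference in any comparison by templates was not tested. Levels by templates are compared below between populations, for 1 gene or for the cluster at a time. Shares of expanded clones also rest on a template threshold.

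**Figure D2:**
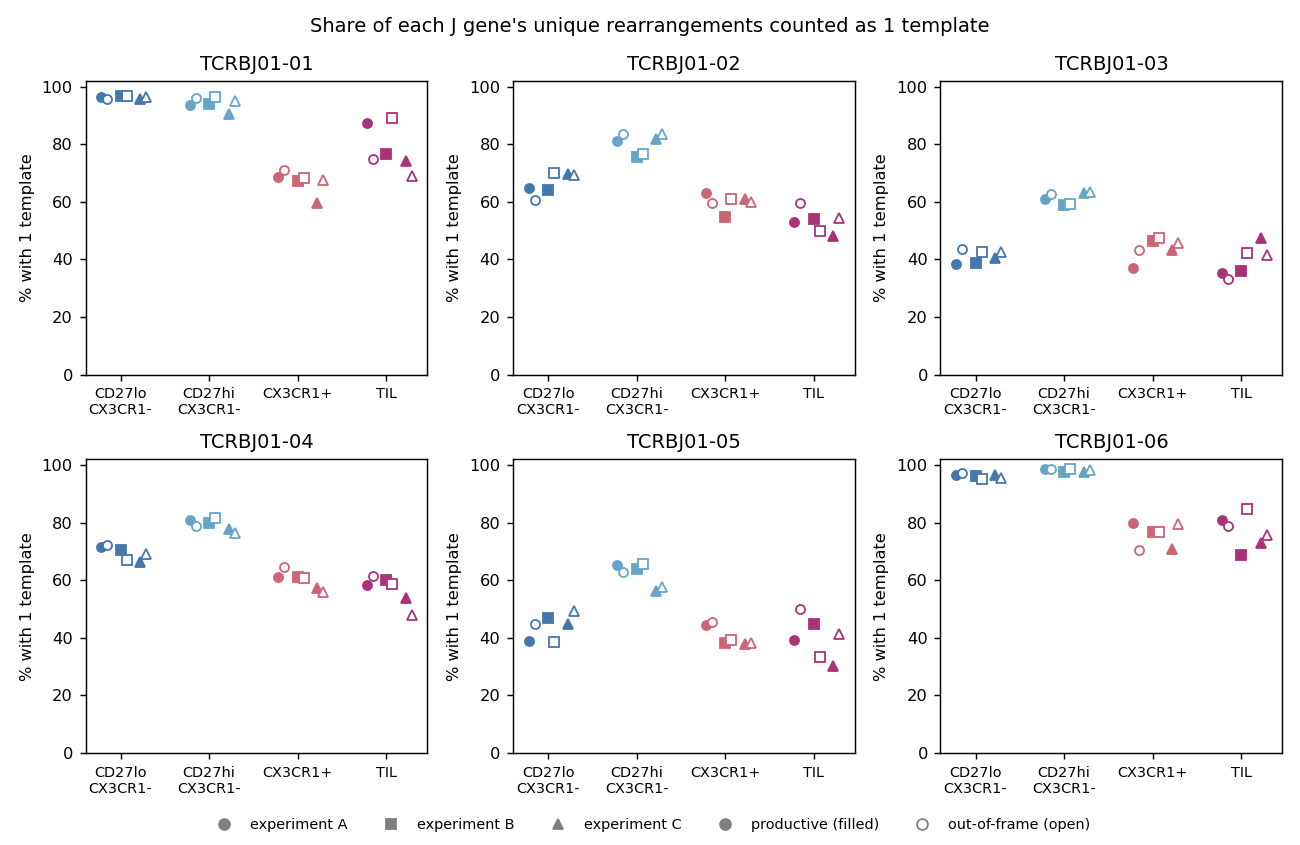
Share of a J gene's unique rearrangements that had a count of 1 template (percent), by library and population, for productive and out-of-frame rearrangements. In CD27lo CX3CR1- cells TCRBJ01-01 and TCRBJ01-06 lay near 96%, and TCRBJ01-03 near 39%, in frame.

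When each clone was weighted by its templates, the populations drew apart, and TILs had the lowest share of the cluster. The cluster held 33.6%, 33.1% and 33.2% of productive templates in CD27lo CX3CR1- cells and 33.0%, 33.5% and 32.7% in CD27hi CX3CR1- cells. In CX3CR1+ cells it held 30.5%, 49.1% and 31.4%, and in TILs 18.7%, 24.4% and 23.99%. All 3 TIL libraries lay below all 9 splenic libraries, and the CX3CR1+ library of experiment B stood apart above the rest. TILs were lower than the mean of the splenic subsets by 13.7, 14.1 and 8.44 points, for a mean of -12.1 ± 3.16 (SD, n = 3). This contrast was chosen after the values were seen. It gave p = 0.0156 in an exact permutation test within experiments, the smallest p that its 64 arrangements allow, and an adjusted p of 0.0391, with 40% of the 15 features passing. Of the members, TCRBJ01-01 fell by 2.61 points, TCRBJ01-04 fell by 1.68 points and TCRBJ01-06 fell by 0.735 points in TILs (adjusted p = 0.0391 each by the exact permutation test). The largest fall was that of TCRBJ01-03, at 5.35 points, which did not pass (adjusted p = 0.384, exact permutation test). TCRBJ01-02 and TCRBJ01-05 fell by 0.764 and 0.930 points and did not pass either. CX3CR1+ cells exceeded TILs by 11.8, 24.7 and 7.36 points (mean 14.6 ± 9.01, exact sign-flip p = 0.25, the smallest possible). The TIL deficit rested in part on the largest clones of either cluster. It was -8.69 points without each library's largest clone and -4.22 points without its 10 largest, and neither passed (adjusted p = 0.0781 and 0.156, exact permutation test).

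The difference of the clonal groups from the CX3CR1- subsets in the cluster's share of templates did not pass (-3.49 ± 6.30 points, exact permutation p = 0.481, adjusted p = 0.722), and the CX3CR1+ library of experiment B alone among the 6 clonal libraries was above the CX3CR1- libraries. Among its members TCRBJ01-01 and TCRBJ01-02 were lower in the clonal groups. TCRBJ01-01 held 7.69%, 7.52% and 7.98% of productive templates in CD27lo CX3CR1- cells and 7.60%, 7.62% and 7.24% in CD27hi CX3CR1- cells, against 5.30%, 4.48% and 6.20% in CX3CR1+ cells and 2.63%, 4.39% and 5.68% in TILs. The highest clonal library was below the lowest CX3CR1- library. Its difference was -2.83 ± 1.04 points (SD, n = 3), with p = 0.00926, the smallest possible, and an adjusted p of 0.0463 in the exact permutation test, where 20% of the 15 features passed. Among rearrangements with at least 2 templates this difference turned to 2.26 points (adjusted p = 0.0595, exact permutation test), and without each library's 10 largest clones it was -0.991 points (adjusted p = 0.231).

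TCRBJ01-02 held 7.32%, 6.74% and 6.53% of templates in CD27lo CX3CR1- cells, 7.05%, 6.86% and 6.89% in CD27hi CX3CR1- cells, 3.56%, 4.38% and 6.00% in CX3CR1+ cells and 3.38%, 6.41% and 6.36% in TILs. These groups did not overlap either, though the TIL libraries of experiments B and C lay close to the CX3CR1- libraries, and the difference was -1.89 ± 1.65 points (exact permutation p = 0.00926, adjusted p = 0.0463). It was -0.969 points without experiment A, and without each library's largest clone it was -1.28 points and no longer passed (adjusted p = 0.382, exact permutation test). TCRBJ01-03 behaved differently from the other members. It held between 5.39% and 6.22% of templates in the CX3CR1- libraries, 8.33%, 27.5% and 8.60% in CX3CR1+ cells and 1.95%, 6.37% and 1.96% in TILs. Every CX3CR1+ library was thus above, and 2 TIL libraries were below, all CX3CR1- libraries, and the library of experiment B was raised by a single clone described below. TCRBJ01-04 differed by -1.16 points (adjusted p = 0.104, exact permutation test).

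**Figure D3:**
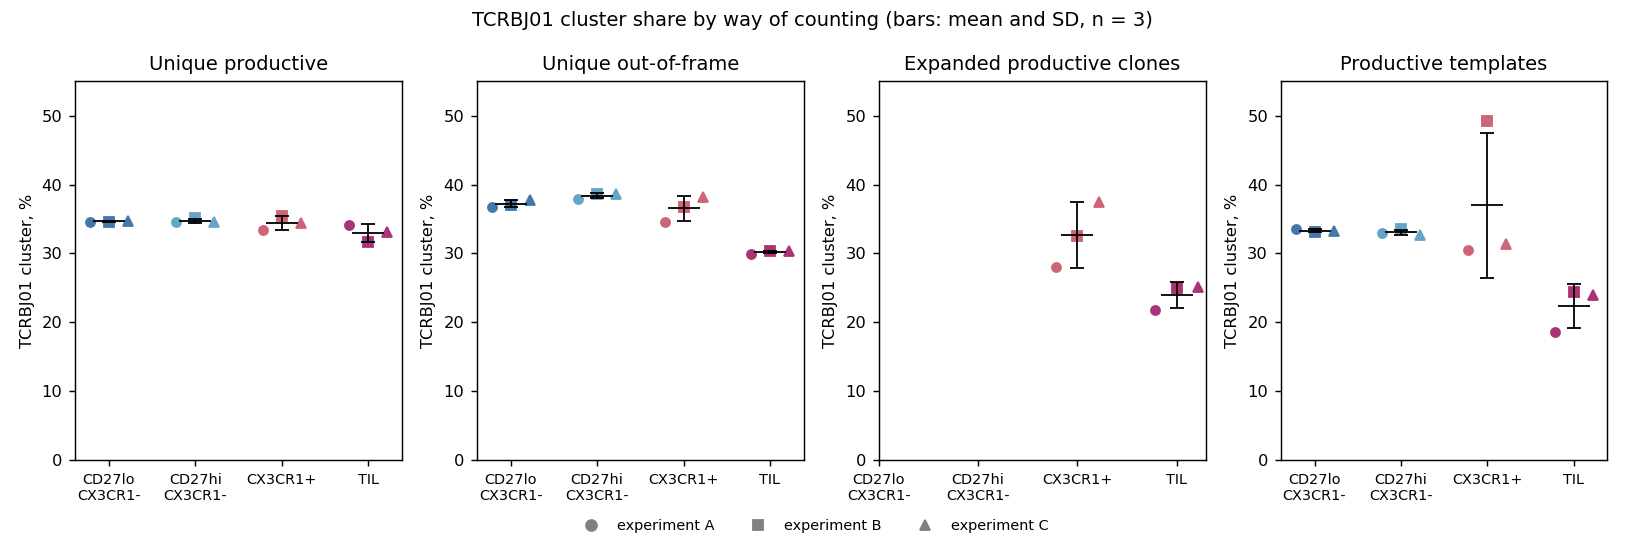
Share of the 6 TCRBJ01 genes together (percent) among unique productive rearrangements, unique out-of-frame rearrangements, expanded productive clones and productive templates, with 1 point per library and the mean and SD of the 3 experiments. The panel of expanded clones leaves out the CX3CR1- subsets, which had 8 or fewer expanded clones per library, and by templates TILs lay between 18.7% and 24.4%.

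Out-of-frame rearrangements gave the level of the cluster in chains that cannot be selected by antigen. In splenic cells the cluster was used more often out of frame than in frame, whereas TILs showed the opposite. Out of frame it made up 36.7%, 37.1% and 37.8% of unique rearrangements in CD27lo CX3CR1- cells, 37.9%, 38.6% and 38.6% in CD27hi CX3CR1- cells, 34.6%, 36.8% and 38.1% in CX3CR1+ cells, and 29.98%, 30.3% and 30.4% in TILs. These rested on 627, 683 and 1037 out-of-frame rearrangements in TILs and on 2283 or more in each splenic library. All TIL libraries lay below all splenic libraries, by 6.45, 7.17 and 7.78 points (mean -7.14 ± 0.665, exact permutation p = 0.0156, adjusted p = 0.0391, 40% of the 15 features passing). TCRBJ01-02 fell by 1.97 points, TCRBJ01-03 fell by 1.85 points and TCRBJ01-05 fell by 0.660 points in TILs (adjusted p = 0.0391 each by the exact permutation test). The clonal groups differed from the CX3CR1- subsets by -4.40 ± 0.576 points (exact permutation p = 0.0278, adjusted p = 0.0833), and of the members TCRBJ01-06 alone passed (-0.532 points, adjusted p = 0.0463, 20% of features passing).

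A count of rearrangements close to abundant clones moved with this difference. Out-of-frame rearrangements that were 1 inserted or deleted base away from a productive rearrangement of the same library and J gene that was more abundant and had at least 5 templates made up 8.77%, 12.6% and 10.6% of out-of-frame rearrangements in TILs (55, 86 and 110 rearrangements) and 6.36%, 6.61% and 4.34% in CX3CR1+ cells. In the CX3CR1- subsets they made up between 0.0804% and 0.306%. Without them the cluster's out-of-frame share in TILs was 32.7%, 33.3% and 32.7%, and the difference from the splenic subsets was -4.91 ± 0.855 points, which no longer passed (exact permutation p = 0.0156, adjusted p = 0.0586). What produced these rearrangements was not tested.

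Between frames, TCRBJ01-01 was enriched in productive rearrangements, and TCRBJ01-05 and TCRBJ01-06 were depleted. TCRBJ01-01 averaged 9.45% in frame against 8.06% out of frame (difference 1.38 points, higher in 11 of 12 libraries, exact sign-flip adjusted p = 0.00732), though its difference in template shares was -0.717 points. TCRBJ01-05 averaged 3.60% against 4.31% (-0.715 points, lower in 11 of 12) and TCRBJ01-06 2.93% against 3.75% (-0.817 points), both with an adjusted p of 0.00942 by exact sign flips. In this comparison 53.3% of the 15 features passed. These sign flips take the 12 libraries as independent, although the 4 libraries of an experiment share mice. Over the 3 experiments the 3 genes kept these directions in 3 of 3, but exact sign flips then gave p = 0.25, the smallest possible, so none of them passed by experiment. TCRBJ01-02, TCRBJ01-03 and TCRBJ01-04 differed by -0.563, -0.371 and -0.285 points with adjusted p of 0.0579, 0.0992 and 0.0992 (exact sign flips). For the cluster the frames differed by -2.74 ± 1.01 points in the 9 splenic libraries (lower in frame in 9 of 9) and by 4.16, 1.31 and 2.80 points in TILs, so that the mean over all 12 libraries was -1.37 ± 2.70 points (exact sign-flip p = 0.105, adjusted p = 0.113).

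The gap between frames itself differed between TILs and splenic cells by 6.40, 3.73 and 6.37 points (mean 5.50 ± 1.53, exact permutation p = 0.0156, adjusted p = 0.0469, 33.3% of 15 features passing). Without the out-of-frame rearrangements 1 base from an abundant clone, the frames differed in TILs by 1.45, -1.72 and 0.494 points, with no common direction, and over the 12 libraries by -2.38 points (exact sign-flip adjusted p = 0.00407).

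Expanded clones were those with at least 0.1% of a library's productive templates and at least 5 templates. A template threshold does not treat all J genes alike. On average 67.4% of the cluster's productive rearrangements had 1 template, against 26.6% for TCRBJ02-07. The other TCRBJ02 genes averaged between 70.4% and 85.2%. The part of this counting difference in the shares of expanded clones was not tested. The cluster was used by a smaller share of expanded clones than of all unique rearrangements in TILs. In TILs it was used by 25 of 115, 32 of 128 and 33 of 131 expanded clones, or 21.7%, 25.0% and 25.2%. This was lower than in unique rearrangements of the same libraries by 12.4, 6.61 and 7.99 points (mean -9.00 ± 3.03, lower in 3 of 3, exact sign-flip p = 0.25, the smallest possible). In CX3CR1+ cells it was used by 40 of 143, 41 of 126 and 54 of 144 expanded clones, or 28.0%, 32.5% and 37.5%. There the differences were -5.41, -2.93 and 3.05 points, which had no common direction (mean -1.76 ± 4.35, exact sign-flip p = 0.75). CD27lo CX3CR1- libraries held 7, 2 and 8 expanded clones and CD27hi CX3CR1- libraries 0, 1 and 0, too few for a share.

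Expanded clones of the cluster held 17.5%, 36.2% and 17.2% of productive templates in CX3CR1+ cells and 7.65%, 17.4% and 16.0% in TILs. TCRBJ01-03 was the most frequent member in CX3CR1+ cells, with 41 of their 135 expanded TCRBJ01 clones. In TILs TCRBJ01-02 had 21 of 90, and TCRBJ01-03 and TCRBJ01-04 had 20 each. TCRBJ01-06 was the least frequent in both, with 7 and 3. Since counts at 1 template were spread unevenly over J genes, the number of clones of a member that reach a template threshold also moved with the gene, and members were not ranked against each other by a test.

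The largest TCRBJ01 clones were taken as the 2 most abundant in each clonal library, which gave 11 clones by nucleotide sequence, numbered 1 to 11. Those that show how a clone was spread over populations, or how the same CDR3 arose in another experiment, are printed with the J bases in capitals and V, D and inserted bases in lower case.
Clone 3, TCRBV05-01 with TCRBJ01-03: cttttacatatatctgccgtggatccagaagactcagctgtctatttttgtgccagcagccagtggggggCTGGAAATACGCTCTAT
Clone 1, TCRBV13-02 with TCRBJ01-05: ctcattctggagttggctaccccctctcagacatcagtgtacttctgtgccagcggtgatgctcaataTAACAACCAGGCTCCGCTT
Clone 10, TCRBV13-02 with TCRBJ01-05: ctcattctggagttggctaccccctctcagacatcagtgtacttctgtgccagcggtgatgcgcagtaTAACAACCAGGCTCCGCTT
Clone 8, TCRBV29-01 with TCRBJ01-02: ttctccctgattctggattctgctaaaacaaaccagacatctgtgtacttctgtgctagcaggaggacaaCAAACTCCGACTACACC
Clone 11, TCRBV29-01 with TCRBJ01-02: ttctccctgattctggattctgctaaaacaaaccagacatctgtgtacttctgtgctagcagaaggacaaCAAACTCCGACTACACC
Clone 5, TCRBV03-01 with TCRBJ01-03: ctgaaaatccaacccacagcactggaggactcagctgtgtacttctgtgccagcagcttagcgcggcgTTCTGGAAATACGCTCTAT
Clone 6, TCRBV03-01 with TCRBJ01-03: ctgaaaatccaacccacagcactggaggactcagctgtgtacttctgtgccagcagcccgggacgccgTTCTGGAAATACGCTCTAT

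Clone 3 was by far the largest. In experiment B it held 8948 templates of CX3CR1+ cells, or 17.5% of productive templates (95% Wilson interval 17.2% to 17.9%), and 179 templates or 1.44% in TILs. In the same experiment it held 78 templates (0.429%) in CD27lo CX3CR1- cells and 93 (0.189%) in CD27hi CX3CR1- cells, and it was read in no library of experiments A and C, where a count of 0 allows at most 0.0509%. The excess of TCRBJ01-03 in the CX3CR1+ library of experiment B was mostly this clone. Clone 4, TCRBV01-01 with TCRBJ01-03, was of the same library with 1475 templates (2.89%) and had 18 templates (0.145%) in its TILs. These intervals cover counting error only, because copies made by PCR before sequencing are not independent molecules.

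Clones 1 and 10 encode the same CDR3 and differ at 2 of 87 bases. Clone 1 was large in experiment A, with 1219 templates (2.19%) in CX3CR1+ cells and 105 (1.78%) in TILs, and clone 10 in experiment C, with 277 (0.244%) in CX3CR1+ cells and 623 (2.97%) in TILs. The sequence of clone 10 was also read in experiment A. There it had 4 templates in CX3CR1+ cells, 2 in CD27hi CX3CR1- cells, 1 in CD27lo CX3CR1- cells and 0 in TILs. Clones 8 and 11 likewise share a CDR3 and differ at 1 of 87 bases. Clone 8 had 494 templates (3.99%) in TILs and 183 (0.359%) in CX3CR1+ cells of experiment B, and clone 11 had 387 (1.85%) and 139 (0.122%) in those of experiment C. In both pairs the same CDR3 was thus made from different nucleotide sequences and was large in TILs of 2 experiments. Of the others, clone 7 (TCRBV26-01 with TCRBJ01-04) had 83 templates (1.41%) in TILs and 53 (0.0950%) in CX3CR1+ cells of experiment A, and clone 9 (TCRBV13-02 with TCRBJ01-04) had 232 (1.87%) and 26 (0.0510%) in those of experiment B.

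Clone 2, TCRBV12-02 with TCRBJ01-03, was the exception to sharing between the clonal populations. It held 865 templates (1.55%) in CX3CR1+ cells and 24 (0.131%) in CD27lo CX3CR1- cells of experiment A, and 0 templates in TILs, where a count of 0 allows up to 0.0509%. Clones 5 and 6, both TCRBV03-01 with TCRBJ01-03 and both with no J base removed, held 1210 (1.06%) and 1112 (0.978%) templates in CX3CR1+ cells of experiment C and 25 (0.119%) and 37 (0.177%) in its TILs. Their CDR3s differ, but both end in 2 arginines followed by the residues that an untrimmed TCRBJ01-03 segment encodes within CDR3.

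**Figure D4:**
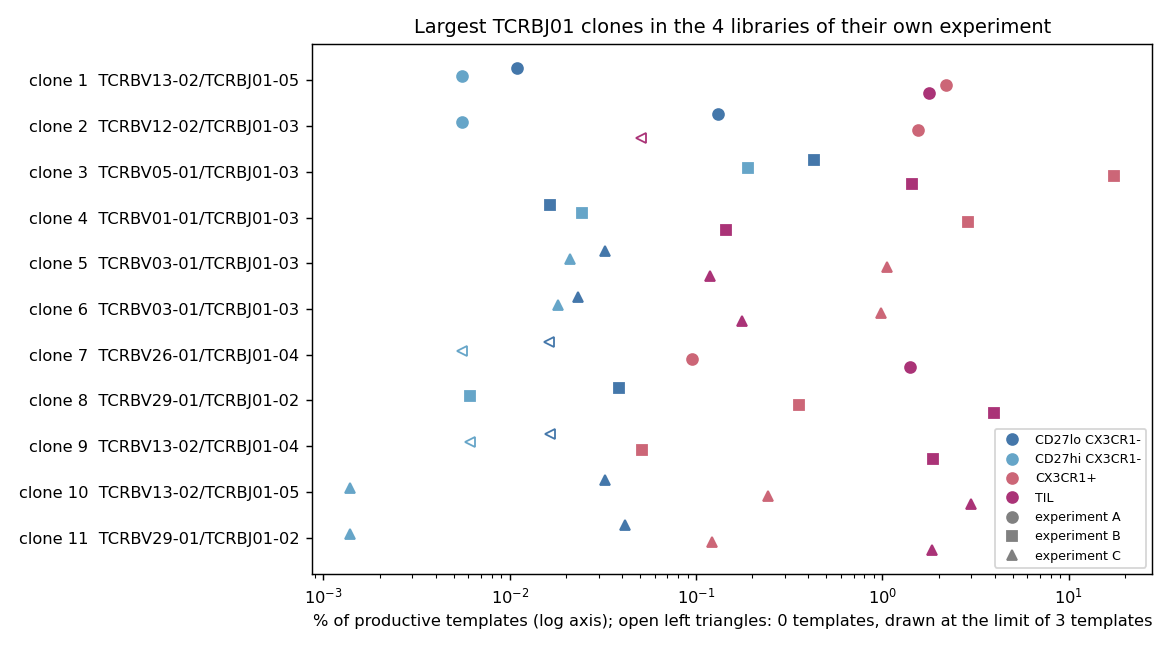
Share of productive templates (percent, log axis) held by each of the 11 named TCRBJ01 clones in the 4 populations of the experiment in which the clone was chosen, with open left-pointing triangles for 0 templates drawn at the limit of 3 templates. Clone 3 reached 17.5% in CX3CR1+ cells of experiment B, and clone 2 had no template in TILs.

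Rearrangements of the cluster were shared between CX3CR1+ cells and TILs of an experiment. Of the TILs' unique productive TCRBJ01 rearrangements 100 of 464, 209 of 490 and 350 of 721 were also read in the CX3CR1+ cells of the same experiment, or 21.6%, 42.7% and 48.5%, and they held 41.7%, 86.3% and 89.4% of TIL TCRBJ01 templates. For TCRBJ02 genes the shares were 19.7%, 35.95% and 45.4% of unique rearrangements and 69.0%, 85.4% and 87.5% of templates. Between libraries of different experiments 0.43% to 1.84% of TIL TCRBJ01 rearrangements were shared by nucleotide sequence. They held 0.272% to 15.2% of TIL TCRBJ01 templates, with the highest value for TILs of experiment C and CX3CR1+ cells of experiment A. For TCRBJ02 genes the shares between experiments were 1.32% to 2.46% of unique rearrangements and 3.54% to 18.7% of templates. Within experiments, A had the shallowest TIL library and the lowest shares for both clusters.

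V partners were compared between populations over pairs of a V and a J gene. The test was edgeR's quasi-likelihood test on counts of unique productive rearrangements, with the experiment as a block. Each member paired most often with a few V genes, namely TCRBV19-01 with TCRBJ01-01 (10.2% of its unique rearrangements on average over 12 libraries) and TCRBJ01-06 (13.3%), TCRBV12-01 with TCRBJ01-02 (10.2%), TCRBV03-01 with TCRBJ01-03 (10.9%), and TCRBV13-02 with TCRBJ01-04 (10.3%) and TCRBJ01-05 (11.5%). For the clonal groups against the CX3CR1- subsets, 5 of 142 member pairs passed (3.52%), against 4.18% of all 287 pairs. Of the 5, 2 were higher in the clonal groups, where 2.44% of all pairs were, and 3 were lower, where 1.74% were, and the median log2 difference was -0.10 over member pairs and -0.08 over all pairs. The members' share was thus close to the background.

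The pair TCRBV03-01 with TCRBJ01-03 was higher in the clonal groups by 0.91 on the log2 scale (SE 0.17, edgeR adjusted p = 7.8e-06). It made up 0.447%, 0.387% and 0.420% of unique rearrangements in CD27lo CX3CR1- cells, 0.343%, 0.400% and 0.307% in CD27hi CX3CR1- cells, 0.601%, 0.894% and 0.637% in CX3CR1+ cells and 0.221%, 1.03% and 0.828% in TILs. All clonal libraries were above all CX3CR1- libraries but the TIL library of experiment A, where the pair had 3 rearrangements. TCRBV05-01 with TCRBJ01-01 was also higher (log2 0.62, SE 0.15, edgeR adjusted p = 0.00147), with 0.439% to 0.531% in the CX3CR1- libraries, 0.573%, 0.680% and 0.567% in CX3CR1+ cells and 1.10%, 1.03% and 0.644% in TILs, which did not overlap. TCRBV12-01 with TCRBJ01-02 was lower (log2 -0.73, SE 0.17, edgeR adjusted p = 0.000604), with 0.674% to 0.970% in the CX3CR1- libraries, 0.643%, 0.608% and 0.777% in CX3CR1+ cells and 0.442%, 0.323% and 0.368% in TILs. TCRBV13-02 with TCRBJ01-02 (log2 -0.55, SE 0.17, adjusted p = 0.0448) and TCRBV13-03 with TCRBJ01-01 (log2 -0.53, SE 0.17, adjusted p = 0.0464) were lower as well by edgeR, the latter turning to a log2 difference of 1.20 among rearrangements with at least 2 templates. Without experiment B 1 of the 5 pairs passed, and the first 2 pairs gave log2 differences of 0.71 (adjusted p = 0.103) and 0.55 (adjusted p = 0.124).

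Within the pair TCRBV03-01 with TCRBJ01-03, the ending seen in clones 5 and 6 was prominent in the clonal groups. This pattern was noticed in the data and is given without a test. The ending is 2 arginines and then the residues that an untrimmed J segment encodes within CDR3. It was carried by 69 different nucleotide rearrangements that encoded 18 CDR3s, and all 134 occurrences had a CDR3 of 15 residues. It made up 10.3%, 14.0% and 9.23% of the pair's unique rearrangements in CD27lo CX3CR1- cells, 5.48%, 4.61% and 5.36% in CD27hi CX3CR1- cells, 53.5%, 40% and 31.5% in CX3CR1+ cells, and 2 of 3, 13 of 16 and 10 of 18 in TILs. Without it, the pair made up 0.371% ± 0.035 of unique rearrangements in CD27lo CX3CR1- cells, 0.332% ± 0.046 in CD27hi CX3CR1- cells, 0.418% ± 0.130 in CX3CR1+ cells and 0.212% ± 0.148 in TILs (SD, n = 3), and the SDs overlapped. The ending was picked from clones large in CX3CR1+ cells, so no conclusion on the pair's difference is drawn from this overlap. By templates the ending held 1.42%, 1.44% and 3.51% of CX3CR1+ cells and 0.034%, 0.969% and 0.501% of TILs, against at most 0.134% in a CX3CR1- library. In 97 of the 134 occurrences no J base had been removed, and 81 had no D gene call.

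**Figure D5:**
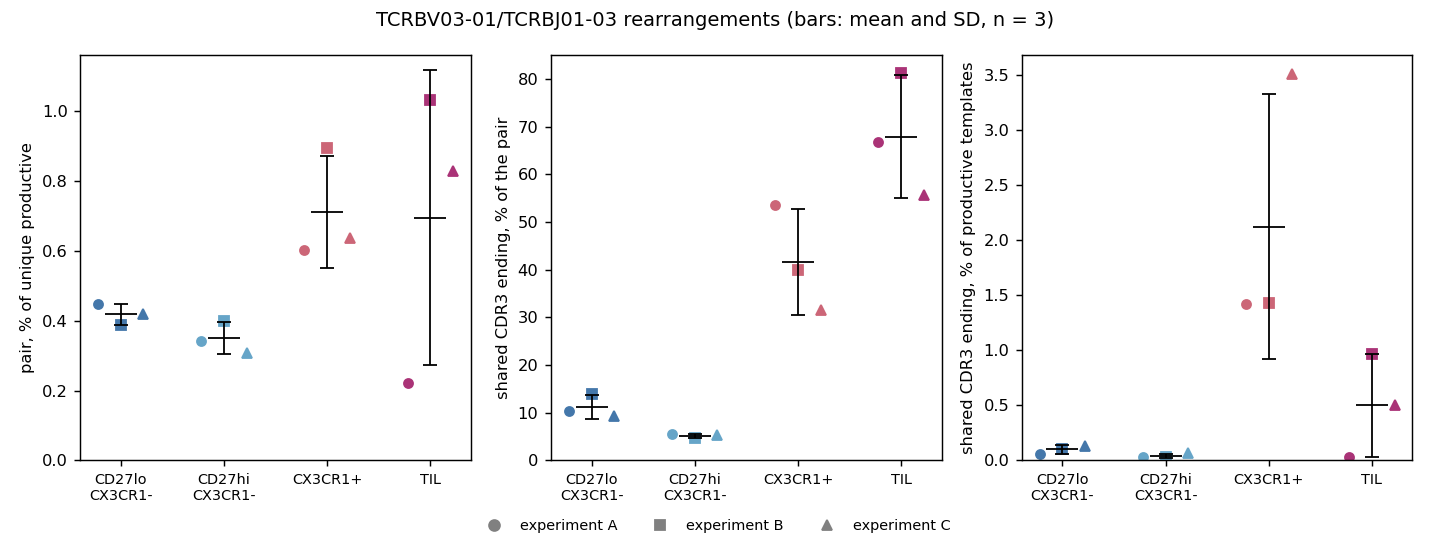
From left to right, the pair of TCRBV03-01 and TCRBJ01-03 as percent of unique productive rearrangements, the share of the pair (percent) whose CDR3 ends in 2 arginines followed by the residues that an untrimmed J segment encodes within CDR3, and the percent of productive templates with that ending, by library with mean and SD. The ending made up 31.5% to 53.5% of the pair in CX3CR1+ cells and 4.61% to 14.0% in the CX3CR1- subsets.

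Between CX3CR1+ cells and TILs 0 of 142 member pairs passed by edgeR (8 had an unadjusted p under 0.05, and DESeq2 called 0), where 0.348% of the 287 pairs passed. No member passed in the test of J genes either (0% of 13), where TCRBJ01-03 had a log2 difference of 0.32 and TCRBJ01-06 of -0.40, both with an adjusted p of 0.187 by edgeR. Between CD27lo and CD27hi CX3CR1- cells 2 of 142 member pairs passed (1.41%, against 1.05% of all pairs), both higher in CD27lo CX3CR1- cells, where 0.697% of all pairs were, and both with TCRBJ01-01. TCRBV31-01 with TCRBJ01-01 was higher in CD27lo CX3CR1- cells by 0.86 (SE 0.20, edgeR adjusted p = 0.00429), with 0.200%, 0.248% and 0.265% against 0.143%, 0.139% and 0.117%. TCRBV14-01 with TCRBJ01-01 was higher by 0.49 (SE 0.12, edgeR adjusted p = 0.00994), with 0.493%, 0.534% and 0.588% against 0.387%, 0.397% and 0.377%. The groups did not overlap for either pair, DESeq2 called neither, and both log2 differences turned negative (-2.03 and -0.69) among rearrangements with at least 2 templates.

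Most pairs differed between frames. Here each library was its own block, so the test takes the 12 libraries as independent although the 4 libraries of an experiment share mice. No test of these pairs over the 3 experiments was run. Of 148 member pairs 111 passed by edgeR (75%, with 39 higher and 72 lower in frame), against 77.1% of 301 pairs, of which 31.6% were higher and 45.5% lower. By member, the numbers higher and lower in frame were 9 and 7 for TCRBJ01-01, 6 and 14 for TCRBJ01-02, 8 and 11 for TCRBJ01-03, 8 and 13 for TCRBJ01-04, 5 and 13 for TCRBJ01-05 and 3 and 14 for TCRBJ01-06, so TCRBJ01-01 was the member with more pairs higher than lower. The 10 largest differences were all lower in frame and involved 5 V genes. TCRBV24-01 averaged 0.0878% of unique rearrangements in frame against 0.492% out of frame with TCRBJ01-01 (log2 -2.74, SE 0.13), and its pairs with TCRBJ01-04 and TCRBJ01-06 gave log2 differences of -2.71 and -2.57. TCRBV22-01, annotated as a pseudogene in RefSeq as is Trbv10, gave -2.89 with TCRBJ01-04, -2.71 with TCRBJ01-05, -2.69 with TCRBJ01-02 and -2.50 with TCRBJ01-01. Trbv29 has the same annotation, but of the 6 member pairs of TCRBV29-01 4 passed as higher in frame and 0 as lower (median log2 difference 0.47). The highest differences were 1.43 for TCRBV14-01 with TCRBJ01-01 and 1.27 for TCRBV12-02 with TCRBJ01-02.

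Some CDR3s made with TCRBJ01 genes recurred over the clonal libraries. Of all CDR3s of the cluster found in CX3CR1+ cells or TILs, 4 were read in all 6 clonal libraries, 8 in 5, 19 in 4, 118 in 3, 833 in 2 and 7121 in 1. CDR3s of TCRBJ02 genes were not counted this way, so whether recurrence differs between the clusters was not tested. The most abundant nucleotide versions of the 4 are printed with capitals marking the J bases. Numbers 1 and 3 keep all 19 bases of the TCRBJ01-03 stretch. Number 2 keeps 12 of the 17 bases of TCRBJ01-01, and number 4 keeps 19 of the 22 bases of TCRBJ01-06.
Public CDR3 1, TCRBV03-01 with TCRBJ01-03: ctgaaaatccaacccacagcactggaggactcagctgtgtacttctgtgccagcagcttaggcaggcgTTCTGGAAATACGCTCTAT
Public CDR3 2, TCRBV13-01 with TCRBJ01-01: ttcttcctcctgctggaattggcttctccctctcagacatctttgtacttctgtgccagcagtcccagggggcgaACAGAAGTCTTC
Public CDR3 3, TCRBV03-01 with TCRBJ01-03: the sequence of clone 5 above
Public CDR3 4, TCRBV19-01 with TCRBJ01-06: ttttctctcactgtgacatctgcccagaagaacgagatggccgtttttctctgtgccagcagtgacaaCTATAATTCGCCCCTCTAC

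Public CDR3s 1 and 3 both carried the ending of 2 arginines and the residues that an untrimmed TCRBJ01-03 segment encodes within CDR3. Public CDR3 1 was read in 12 of 12 libraries from 31 nucleotide versions and averaged 0.395% of templates over the 6 clonal libraries, with 0.335%, 0.853% and 0.807% in CX3CR1+ cells. Public CDR3 3 was read in 12 of 12 libraries from 23 versions and averaged 0.346%. Public CDR3 2 had 8 versions in 10 of 12 libraries and averaged 0.362%, with 0.204%, 0.468% and 1.02% in TILs. Over its occurrences in the libraries TCRBV05-01 was the V gene called most often, although the most abundant version used TCRBV13-01. Public CDR3 4 had 6 versions in 11 of 12 libraries and averaged 0.0297%, so it recurred without being large. The CDR3 of clones 8 and 11 was read in 5 of the 6 clonal libraries from 10 versions and averaged 1.08%.

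CDR3 length and junction trimming differed among the members more than among the populations. The mean CDR3 of unique productive rearrangements was shortest for TCRBJ01-01 (39.8 ± 0.23 nucleotides, SD over 12 libraries), and it was 40.9 for TCRBJ01-02, 41.9 for TCRBJ01-05, 42.9 for TCRBJ01-03, and 43.1 for both TCRBJ01-04 and TCRBJ01-06. TCRBJ01-03 lost the fewest J bases (1.41 on average) and TCRBJ01-06 the most (4.10), with TCRBJ01-02 at 1.80 and the other 3 between 2.86 and 2.87. For the cluster, mean inserted bases were 3.39 ± 0.07 in frame and 3.90 out of frame, and for TCRBJ02 genes 3.51 in frame.

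With the clonal groups set against the CX3CR1- subsets, none of 24 features tested passed. The cluster's inserted bases were higher in the clonal groups by 0.0792, 0.0855 and 0.0996 (mean 0.088 ± 0.010, higher in 3 of 3, exact permutation p = 0.00926, adjusted p = 0.111), and TCRBJ01-03's by 0.187 ± 0.050 (adjusted p = 0.111, exact permutation test). The first D segment was called in 68.7% ± 0.67 of productive TCRBJ01 rearrangements, the second in 6.66% ± 1.01 and neither in 24.7%, whereas TCRBJ02 rearrangements gave 33.5%, 50.0% and 16.5%.

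Over the 12 libraries, the J gene whose share of unique productive rearrangements was ordered most like that of a member was TCRBJ02-05 for TCRBJ01-01 (Spearman's rho 0.804, n = 12), TCRBJ01-05 for TCRBJ01-02 (0.566), TCRBJ02-07 for TCRBJ01-03 (0.797), TCRBJ01-05 and TCRBJ01-04 for each other (0.713), and TCRBJ02-01 for TCRBJ01-06 (0.524). These are descriptions without a test, since the libraries share mice within an experiment, differ in depth, and shares of one library sum to a fixed total.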

How the data were processed

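TCRβ rearrangements were read from genomic DNA with the ImmunoSEQ assay. The authors sequenced on an Illumina NextSeq and processed reads on the assay's platform. The deposited tables hold template counts, which are whole and not normalized, and equal the estimated genomes in every row. The deposited fraction of each row is its count over all templates of the library, and was not used. CDR3 length, inserted and removed bases were also used as deposited. The labels name mm10. Populations came from the sample labels, and experiments from the code that titles share.

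Shares were computed per library over unique rearrangements or templates. V-J pairs with at least 10 rearrangements summed over libraries were tested with edgeR 4.0.16 (R 4.3.3), and DESeq2 1.42.0 was an alternative. Other tests were exact and two-sided. The clonal groups were tested by permutation within experiments (216 arrangements), TILs against splenic subsets likewise (64), pairs of populations by sign flips over 3 experiments, and frames by sign flips over 12 libraries (4096). The threshold was an adjusted p of 0.05 (Benjamini-Hochberg). Draws to equal depth were repeated 100 times. Named pairs were those called (at most 10 per comparison, by size). The methods were tested on simulated data. The members and lists were chosen with earlier results of these data known. Libraries of an experiment share mice and the study used repeated measures, so the experiment was a block between populations. Between frames each library was its own pair. Deviations of its libraries correlated between -0.41 and 0.73.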

Additional observations from a re-analysis of the deposited data

Results flagged for a closer look

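The difference between the cluster's share in frame and out of frame was not the same in TILs and splenic subsets, by an exact permutation test of that difference within experiments chosen after the data were seen (p = 0.0156 each, the smallest possible, adjusted p = 0.0469). For the whole cluster TILs exceeded the splenic subsets by 5.50 percentage points, with means of 2.76 in TILs and -2.74 in splenic libraries. For TCRBJ01-03 the difference was 1.25 points (0.563 against -0.683), for TCRBJ01-04 0.801 points (0.316 against -0.485) and for TCRBJ01-06 1.06 points (-0.0255 against -1.08). The TIL values rest on the fewest out-of-frame rearrangements, and these were also the libraries with the largest share of out-of-frame rearrangements 1 base from an abundant clone, whose part in the difference was measured for the cluster, where 3.27 points remained (adjusted p = 0.0781, exact permutation test).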

How the results depend on the processing

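Of the comparisons of the cluster and counts of pairs recomputed under other settings, 82 values stayed the same, 23 became weaker, 4 became stronger, 8 changed sign and 1 moved beyond its SD. For tested differences, the same means that direction and side of the threshold were kept. Weaker means that such a value no longer passed, and stronger that it newly passed. For counts of pairs called, the same means a similar number, and weaker or stronger means clearly fewer or more. Contrasts that no test could pass were the same if they stayed within their SD. Of values for single members or pairs, 240 stayed the same, 40 became weaker, 14 became stronger and 16 changed sign. Where a value changed, the cause was not tested, except that in comparisons of J genes between populations leaving out an experiment gives an exact p of 0.0556 or more, which cannot pass. Without the replicate block (924 arrangements), the cluster's difference in unique rearrangements gave an exact permutation p of 0.0909, and the V-J calls between populations stayed at 5, 0 and 2, with 110 between frames. Leaving out the block changed no call of the cluster, its members or the named pairs.

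The clonal groups' cluster difference in unique rearrangements turned to 0.00231 points at equal depth and 2.07 with at least 2 templates, and that in templates to 0.101 with at least 2 templates. Among members by unique rearrangements, with at least 2 templates TCRBJ01-01 turned to 3.92, TCRBJ01-03 to -1.75 and TCRBJ01-04 to 0.178. TCRBJ01-01 turned to 0.441 at equal depth, TCRBJ01-04 to 0.130 without replicate 2 (experiment B; range leaving out an experiment -0.432 to 0.130) and TCRBJ01-03 to -0.063 with non-productive rearrangements. By templates, without replicate 2 TCRBJ01-03 turned to -0.395 and TCRBJ01-05 to 0.072 (ranges -0.395 to 5.33 and -1.04 to 0.072), with at least 2 templates TCRBJ01-01 to 2.26 and TCRBJ01-06 to 1.18, and without the 10 largest clones TCRBJ01-04 to 0.294. CX3CR1+ minus TIL templates were 3.83 points without the 10 largest clones.

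In frame minus out of frame, the cluster's -1.37 points became -4.82 with at least 2 templates, -2.74 without TILs and -2.38 without rearrangements near abundant clones, all of which passed. By templates TCRBJ01-01 turned to -0.717 and TCRBJ01-03 to 1.04. For TILs against splenic subsets, the out-of-frame difference of -7.14 was -5.63 with at least 2 templates, -5.58 by templates and -4.91 without near rearrangements (adjusted p = 0.0781, 0.195 and 0.0586), and -7.48 to -6.81 leaving out an experiment. The template difference was -8.69 and -4.22 without the largest and 10 largest clones, and -13.9 to -11.1 leaving out an experiment. The gap between frames was 4.79 and 3.27 with at least 2 templates and without near rearrangements, and 5.05 to 6.39 leaving out an experiment.

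Weighted by templates, the clonal groups' differences turned to -0.00175 for CDR3 length, -0.062 for inserted and -0.223 for removed bases. Leaving out an experiment gave -0.042 to 0.040 for CDR3 length and -0.043 to 0.093 for removed bases. Member pairs called numbered 3 without the low count filter and 28 with at least 2 templates (22 higher and 6 lower, 4 of them shared) for the clonal groups, and 1 to 4 leaving out an experiment. For CD27lo against CD27hi they numbered 0 by DESeq2, 1 with at least 2 templates and 0 to 2 leaving out an experiment. With at least 2 templates TCRBV13-03 with TCRBJ01-01 turned to 1.20, TCRBV31-01 with TCRBJ01-01 to -2.03 and TCRBV14-01 with TCRBJ01-01 to -0.69 (log2). TIL libraries had the fewest rearrangements, which limits the precision of their shares.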

Other observations

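By V gene, the cluster's share of unique productive rearrangements in CD27hi CX3CR1- cells was lowest for TCRBV30-01 (24.2%) and TCRBV04-01 (26.5%). Pooled over libraries, TCRBV20-01 used the cluster in 43.7% of productive and 37.6% of out-of-frame rearrangements, TCRBV04-01 in 26.1% and 33.8%, and TCRBV29-01 in 41.4% and 49.3%. These V genes were picked after their values were seen and no test was run on them.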
